A study of Rattus norvegicus with 27 samples.

Results

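The adult cardiac sarcomere genes described here are Actc1, Ldb3, Tnni3, Tnnt2, Myl2, Myl3, Tpm1, Ttn and Mybpc3. They were taken as every probe whose annotated symbol is one of these 9 names. 8 of the 9 genes had such a probe, 1 probe each, among 22226 probes for 12978 named genes in all, and all 8 passed the filter that kept the 11657 probes with the highest mean. No probe carried the symbol of Ttn, which encodes titin, so titin is named only.

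Hearts of male Fisher 344 rats gave the total RNA, which was hybridised to Illumina bead arrays. Exposure began at an age of 4 weeks and lasted 3 months, to either filtered air (7 arrays, the controls), coarse ambient particles (6 arrays), fine particles (6 arrays) or ultrafine particles (8 arrays). The labels name no engineered allele, and the inhaled air or particle class was the only labelled difference between groups. The series title asks whether chronic exposure changes expression in the heart. Each array was taken as 1 rat, and p-values refer to the spread between arrays.

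The sarcomere is the contractile unit of muscle, in which myosin thick filaments slide along actin thin filaments between Z-discs. Calcium binding to the troponin complex moves tropomyosin on the thin filament and lets myosin heads bind, while light chains and myosin-binding protein C tune the force of those heads. In the heart muscle cell these proteins make up much of the cell, and their messages are among the most abundant of the tissue. The cardiac troponins serve as blood markers of heart injury, and most of these genes can carry mutations that cause inherited cardiomyopathy.

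The promoter windows of 3 members are printed because the results below turn on them. Of the 8 genes, Ldb3 alone passed the test for a lower level with a higher T cell transcript among 6 arrays. It did not pass among the other 21 (r = -0.15), nor under another normalization (adjusted exact permutation p = 0.0667). Mybpc3 and Myl3 had the largest downward deviations of the 8 genes on a single array, ultrafine 8. On that array 64 of 11657 probes deviated by less than -3. Each window is the 250 bases before the RefSeq start in rat build GRCr8, 5′ to 3′ on the gene's strand. Capitals mark a CArG box, the letters bound by serum response factor, in Ldb3 and Myl3 and a MEF2 site, the letters bound by MEF2 factors, in Mybpc3. The windows are chr16:9924680-9924929 on the minus strand, chr3:97550811-97551060 on the plus strand and chr8:119616844-119617093 on the plus strand.
Ldb3: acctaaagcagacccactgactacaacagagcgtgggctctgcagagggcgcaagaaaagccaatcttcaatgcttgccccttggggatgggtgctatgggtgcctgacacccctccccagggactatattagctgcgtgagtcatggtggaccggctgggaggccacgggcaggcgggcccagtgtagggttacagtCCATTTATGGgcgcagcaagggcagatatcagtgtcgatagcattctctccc
Mybpc3: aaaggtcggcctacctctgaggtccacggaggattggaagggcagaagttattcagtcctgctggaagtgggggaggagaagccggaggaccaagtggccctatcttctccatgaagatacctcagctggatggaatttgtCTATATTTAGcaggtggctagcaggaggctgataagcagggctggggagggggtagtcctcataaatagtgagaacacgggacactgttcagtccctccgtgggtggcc
Myl3: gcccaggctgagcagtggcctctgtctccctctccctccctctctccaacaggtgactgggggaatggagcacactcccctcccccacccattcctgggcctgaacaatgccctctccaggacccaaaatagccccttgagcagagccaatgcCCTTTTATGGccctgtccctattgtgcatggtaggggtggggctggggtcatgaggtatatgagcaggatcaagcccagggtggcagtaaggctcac
The CArG box of Ldb3 lies from -52 to -43 and that of Myl3 from -97 to -88, counted from the start. The MEF2 letters of Mybpc3 lie from -109 to -100. Of the 8 members with a window in the RefSeq table, Ttn included and Myl2 not, 2 held a CArG box and 2 a MEF2 site on either strand. Over 33469 windows of the same length the shares were 1.5% and 2.96%. GATAA, the letters of a GATA factor site, was in 3 of the 8 against 23.5% of all windows, and CANNTG, the E-box, in 5 of the 8 against 65.5%. TATAAA was in 0 of the 8, against 12.9%. A match is a run of letters and was not tested as a binding site.

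The 27 arrays did not hold equal mixtures of RNA. Cd3d, which encodes a subunit of the CD3 complex on T cells, had a median level of 6.39 and lay above 8.39, 2 over the median, on 6 arrays: filtered air 1 at 11.01, coarse 1 at 12.16, coarse 2 at 10.67, fine 2 at 9.57, ultrafine 2 at 11.57 and ultrafine 7 at 12.08. Of 12 thymocyte probes, Cd3d included, 10 were higher on each of these 6 arrays than on every other array, and Cd4 and Cd1d were not. The mean of the 12 ran from 6.25 to 9.20 with filtered air, 6.30 to 10.25 with coarse, 6.30 to 8.03 with fine and 6.13 to 10.17 with ultrafine particles. On 4 arrays, coarse 1, ultrafine 2, ultrafine 7 and ultrafine 8, the median correlation with the other arrays was under 0.949. These 7 arrays are called the arrays apart, and group differences are also given in the other 20 (6 air, 4 coarse, 5 fine and 5 ultrafine arrays), a choice made with earlier results of these data known. Separately, the mean of 9 skeletal muscle probes was 9.12 on coarse 6 and 7.47 on ultrafine 5, against 6.74 at most on the other arrays. All 9 measured markers of heart muscle cells outside the sarcomere were among the kept probes, with a mean from 10.25 to 11.34 over the 27 arrays. In RNA from heart tissue, fewer cells of a type and less RNA per cell cannot be told apart.

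Levels are deposited values on a log2 scale and were so normalized that every array holds nearly the same set of values. A level therefore follows the place of a probe in its array. The brightest probe of an array stood at 14.17, the second at 14.04, the tenth at 13.76 and the hundredth at 12.54. Myl3 lay between places 1 and 473 with a median place of 3, Tpm1 between 2 and 34, Tnnt2 between 1 and 83 and Tnni3 between 3 and 45. For these probes, a step of a few places at the top is the whole of most differences between arrays. Myl2 lay between places 79 and 393, Mybpc3 between 163 and 2490, Ldb3 between 672 and 2563, and Actc1 between 3461 and 7196. Brightness differs between probes for reasons of probe design, so these places do not rank the messages.

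**Figure D1:**
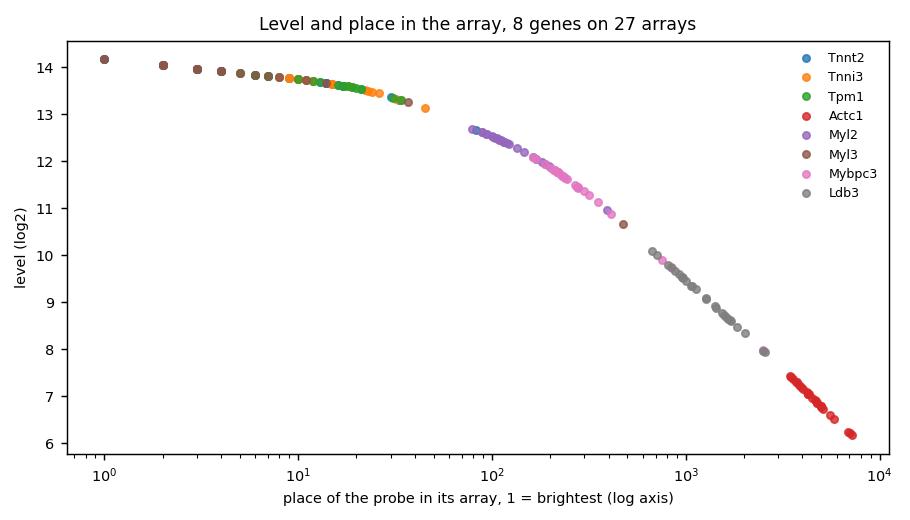
The place of each sarcomere probe in its array (horizontal, 1 is the brightest of 22226 probes, log axis) against its log2 level (vertical), 1 point per gene and array, coloured by gene. All points fall on 1 curve, from 14.17 at place 1 to 6.18, the lowest Actc1 level, so levels near the top move in small fixed steps.

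In none of the 7 comparisons did a sarcomere gene pass an adjusted p under 0.05 by limma with Benjamini-Hochberg adjustment over all kept probes. Few probes were called at all: 0.00858% of all probes were called with coarse, 0% with fine and 0.0686% with ultrafine particles, each against filtered air. Between particle sizes 0.0257% were called for coarse against fine, 0% for coarse against ultrafine and 0.197% for fine against ultrafine, and 0.0944% in the test of any difference. At an unadjusted p under 0.05, 2 of the 8 genes were lower with coarse particles, against 2.32% of all probes. With ultrafine particles 2 were lower, against 2.66% of all probes, and with fine particles 0 of 8 passed in either direction, against 5.98%. Actc1 was in both pairs, with Ldb3 for coarse and Tnni3 for ultrafine particles. The 3 comparisons with filtered air share their 7 control arrays. When each array was weighted by how well it fitted, which limma offers as an option, 2 of the 8 were called with coarse particles, Actc1 at -0.40 (adjusted p = 0.0438) and Tnnt2 at -0.36 (adjusted p = 0.0303), where 1.08% of all probes were. With the replicate number as a block 0 of 8 were called, and 5 (Actc1, Ldb3, Myl3, Tnni3 and Tnnt2) were lower with coarse particles at the unadjusted threshold, where 5.35% of all probes were. In the weighted test of any difference Tnnt2 alone of the 8 was called, where 3.38% of all probes were.

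**Figure D2:**
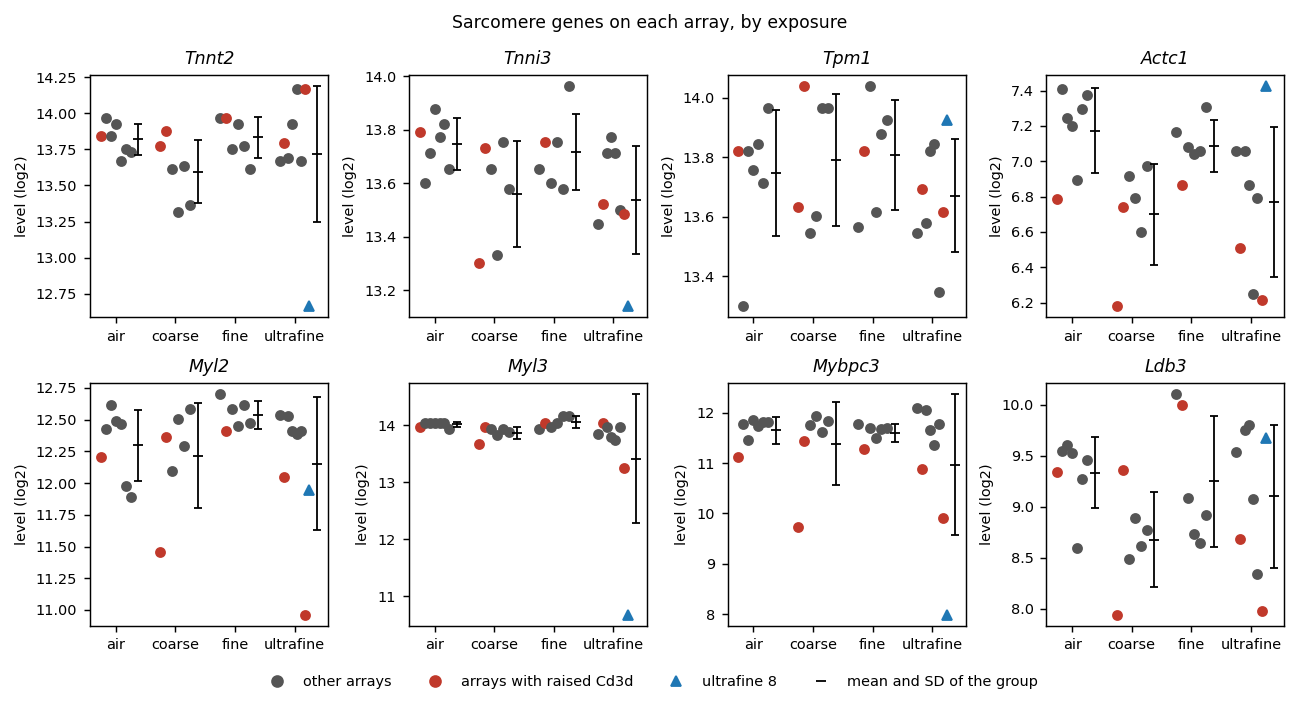
Log2 level of the 8 sarcomere genes on each of 27 arrays (1 point per array) in filtered air, coarse, fine and ultrafine groups, with the mean and SD of each group as a bar. Red points are the 6 arrays with raised Cd3d and the blue triangle is ultrafine 8, which lies at the bottom of its group for Tnnt2, Tnni3, Myl3 and Mybpc3 and at the top for Actc1.

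Of the thin filament genes, Actc1 encodes cardiac alpha-actin, the actin of the adult heart. Its 1 probe was dim, with a mean level of 6.93 and a median place of 4496, where the lowest kept mean was 5.79. How well this probe reports the Actc1 message was not tested. Actc1 ran from 6.78 to 7.41 (median 7.25) with filtered air and from 6.18 to 6.97 (median 6.77) with coarse particles. With fine particles it ran from 6.87 to 7.31 (median 7.07), and with ultrafine particles from 6.21 to 7.43 (median 6.83). The lowest coarse array was coarse 1, the lowest ultrafine array ultrafine 7, and both have raised Cd3d, but ultrafine 5, without it, stood at 6.25; the coarse and air ranges overlap. The group means were 7.17 ± 0.24 (SD, n = 7) with filtered air and 6.70 ± 0.29 (SD, n = 6) with coarse particles, a log2 difference of -0.47 (standard error 0.16), with an adjusted p of 0.912 by limma. With ultrafine particles the mean was 6.77 ± 0.42 (SD, n = 8), a difference of -0.40 with a 95% interval of -0.71 to -0.09 and an adjusted p of 0.809. With fine particles the difference was -0.09 (95% interval -0.42 to 0.25). Without the arrays apart the Actc1 differences were of about the same size, -0.42 for coarse and -0.43 for ultrafine particles, with adjusted p of 0.232 and 0.142. Leaving out coarse 6 and ultrafine 5 as well, a choice made after seeing the skeletal muscle probes, gave -0.47 for coarse, with an adjusted p of 0.0464, and -0.29 for ultrafine particles, with an adjusted p of 0.232. The coarse call in those 18 arrays was 1 of 8 members, where 0.438% of all probes were called.

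Tnnt2 encodes cardiac troponin T, which anchors the troponin complex to tropomyosin. It ran from 13.67 to 13.97 (median 13.85) with filtered air and from 13.32 to 13.88 (median 13.62) with coarse particles. It ran from 13.61 to 13.97 (median 13.85) with fine and from 12.67 to 14.17 (median 13.74) with ultrafine particles. The 2 coarse arrays with raised Cd3d, at 13.77 and 13.88, were the highest coarse arrays, the other 4 ran from 13.32 to 13.63, and ultrafine 8 stood alone at 12.67. The coarse difference from filtered air was -0.22 (standard error 0.16), with an adjusted p of 0.985 in 27 arrays. Without the arrays apart it was -0.33 (95% interval -0.54 to -0.13) with an adjusted p of 0.218. There all 4 coarse arrays lay below all 6 filtered air arrays and below all 5 ultrafine arrays. Of all probes, 1.61% were so separated downward from filtered air and 1.15% from ultrafine particles. No sarcomere gene separated any 2 groups in the 27 arrays, where 0.18% of probes lay lower with coarse particles than with filtered air on every array. With fine particles the Tnnt2 difference was 0.01 (-0.31 to 0.34) and with ultrafine particles -0.10 (-0.40 to 0.20).

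Tnni3 encodes cardiac troponin I, the subunit that holds myosin binding off until calcium rises. It ran from 13.60 to 13.88 (median 13.77) with filtered air, against 13.30 to 13.76 (median 13.62) with coarse particles. With fine particles it ran from 13.58 to 13.97 (median 13.70), and with ultrafine particles from 13.14 to 13.77 (median 13.51). Every ultrafine array lay below the highest filtered air array, but only ultrafine 1, 2, 6, 7 and 8 lay below the lowest. The ultrafine difference was -0.21 (standard error 0.09), with an adjusted p of 0.861, and the coarse difference -0.19 (standard error 0.09), with an adjusted p of 0.985. Over the 20 arrays these were -0.11 and -0.16, with intervals of -0.29 to 0.07 and -0.35 to 0.03. Tpm1 encodes alpha-tropomyosin, the coiled coil along the thin filament, and it differed least between the groups. It ran from 13.30 to 13.97 (median 13.82) with filtered air, 13.54 to 14.04 (median 13.80) with coarse, 13.56 to 14.04 (median 13.85) with fine and 13.35 to 13.92 (median 13.65) with ultrafine particles. All 4 ranges overlapped, and ultrafine 8, low for the troponins, stood at 13.92. The intervals of the Tpm1 difference from filtered air were -0.18 to 0.27 for coarse, -0.17 to 0.29 for fine and -0.29 to 0.14 for ultrafine particles. Without the arrays apart they were -0.23 to 0.31, -0.18 to 0.32 and -0.36 to 0.15. There Tpm1 no longer differed least: its group means ran from 13.63 to 13.80. Those of Tnni3 ran from 13.58 to 13.74 and those of Mybpc3 from 11.67 to 11.79.

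Of the thick filament genes, Myl2 encodes the regulatory light chain of the ventricle, whose phosphorylation raises the force of contraction. It ran from 11.89 to 12.62 (median 12.43) with filtered air and from 11.45 to 12.59 (median 12.33) with coarse particles. It ran from 12.41 to 12.70 (median 12.53) with fine and from 10.96 to 12.54 (median 12.40) with ultrafine particles. The fine arrays were the tightest group, and the lowest arrays of all were ultrafine 7 at 10.96 and coarse 1 at 11.45. Fine particles gave a difference of 0.24 from filtered air (standard error 0.20), with an adjusted p of 0.933. Over the 20 arrays it was 0.25 with an unadjusted p of 0.0383 and an adjusted p of 0.387, and 12.2% of all probes passed at that unadjusted threshold. The coarse and ultrafine differences were -0.08 and -0.14 in 27 arrays, and 0.06 and 0.14 in the 20, so the sign of both turned.

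Myl3 encodes the essential light chain of the ventricle and of slow skeletal muscle. It ran from 13.92 to 14.04 (median 14.04) with filtered air and from 13.67 to 13.97 (median 13.90) with coarse particles. It ran from 13.92 to 14.17 (median 14.04) with fine and from 10.68 to 14.04 (median 13.82) with ultrafine particles. Ultrafine 8, at 10.68, lay far below the next lowest array, ultrafine 7 at 13.26. The ultrafine mean was 13.41 ± 1.13 (SD, n = 8) against 14.01 ± 0.05 (SD, n = 7) with filtered air, a difference of -0.60 (standard error 0.31), with an adjusted p of 0.883. Without ultrafine 8 it was -0.21, with an adjusted p of 0.755. In the 20 arrays it was -0.16 (95% interval -0.28 to -0.05, adjusted p = 0.306), a span of a few places near the top of the array.

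Mybpc3 encodes cardiac myosin-binding protein C, which sits on the thick filament and limits cross-bridge formation. It ran from 11.13 to 11.86 (median 11.77) with filtered air and from 9.73 to 11.94 (median 11.70) with coarse particles. It ran from 11.28 to 11.78 (median 11.68) with fine and from 7.99 to 12.09 (median 11.51) with ultrafine particles. The low ends were ultrafine 8 at 7.99, coarse 1 at 9.73 and ultrafine 7 at 9.91, all arrays apart. On the 20 other arrays Mybpc3 stayed between 11.36 and 12.09. The ultrafine difference from filtered air was -0.69 with an interval of -1.58 to 0.21 and an adjusted p of 0.883. It was -0.26 without ultrafine 8, and 0.05 with an interval of -0.17 to 0.27 in the 20 arrays. The SD of the ultrafine group went from 1.40 in 8 arrays to 0.30 in 5. With coarse particles the Mybpc3 difference was -0.26 in 27 arrays, 0.07 without coarse 1 and 0.05 in the 20.

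At the Z-disc, Ldb3 encodes ZASP, also called Cypher, a PDZ and LIM domain protein that binds alpha-actinin. Its level ran from 8.59 to 9.60 (median 9.46) with filtered air and from 7.94 to 9.36 (median 8.69) with coarse particles. With fine particles Ldb3 ran from 8.65 to 10.10, and with ultrafine particles from 7.97 to 9.80 (median 9.31). All coarse arrays but coarse 2, at 9.36, lay below 6 of the 7 filtered air arrays, and filtered air 5, at 8.59, lay among them. The coarse mean was 8.68 ± 0.47 (SD, n = 6) against 9.34 ± 0.35 (SD, n = 7), a difference of -0.66 with an interval of -1.28 to -0.04 and an adjusted p of 0.985. It was -0.64 with an adjusted p of 0.47 in the 20 arrays. For fine and ultrafine particles the Ldb3 differences were -0.09 and -0.23, each within its standard error of 0.30 and 0.28. Without the arrays apart they were -0.24 (95% interval -0.78 to 0.30) and -0.03 (-0.58 to 0.51).

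**Figure D3:**
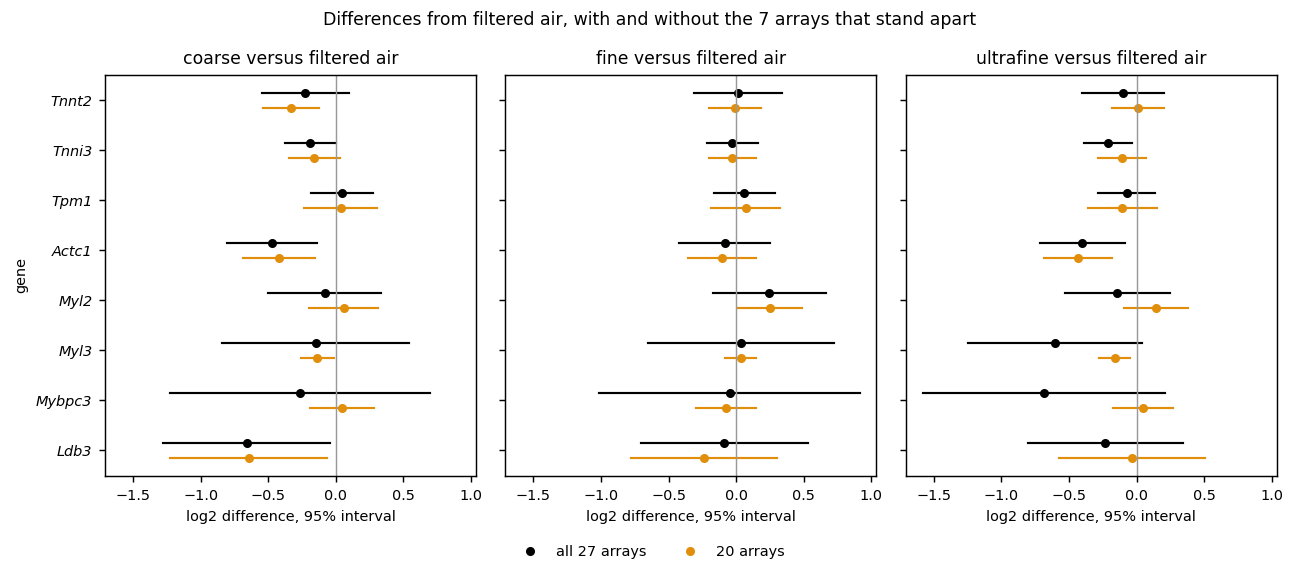
Log2 difference of each sarcomere gene from filtered air (horizontal) with its 95% interval from limma, for coarse, fine and ultrafine particles, in all 27 arrays (black) and in the 20 left without the arrays apart (orange). The intervals of Mybpc3 and Myl3 are the widest in black and shrink in orange, while Actc1 lies below 0 for coarse and ultrafine particles in both.

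As a list, 7 of 8 sarcomere genes lay below 0 with coarse particles, 4 with fine and 8 with ultrafine particles. The median differences were -0.21, -0.01 and -0.22, against medians near 0 over all probes, of which 51.6% lay below 0 with coarse and 48.3% with ultrafine particles. In the 20 arrays the counts were 5, 5 and 5 of 8 and the medians -0.15, -0.02 and -0.07. At an unadjusted p under 0.05 there, 4 of 8 were lower with coarse particles (Actc1, Tnnt2, Ldb3 and Myl3) where 4.36% of all probes were, and 2 of 8 with ultrafine particles (Actc1 and Myl3) where 4.75% were. None of the 8 was called in the 20 arrays either, where 0.377% of probes were called with coarse, 0% with fine and 0.721% with ultrafine particles, and 0.832% in the test of any difference. Between coarse and fine particles all 8 lay below 0 in 27 arrays, at a median of -0.23, where 52.7% of all probes lay below 0. Actc1 alone passed the unadjusted threshold, at -0.39 with an adjusted p of 0.738, where 4.33% of all probes passed downward. In the 20 arrays Actc1 was lower on all 4 coarse arrays than on all 5 fine arrays, as were 2.16% of all probes. In these 20 arrays 7 of 8 lay below 0 between coarse and fine particles, at a median of -0.18, and 3 were lower at the unadjusted threshold (Tnnt2, Myl3 and Actc1), as were 4.66% of all probes. Between fine and ultrafine particles all 8 lay above 0 in 27 arrays, at a median of 0.25, where 49.4% of all probes lay below 0. At the unadjusted threshold 0 of 8 passed, where 12.1% of all probes did. Over the 20 arrays 3 of 8 lay below 0, the median was 0.10, and 2 passed, Myl3 (0.19) and Actc1 (0.33), where 12.9% of all probes did. Coarse and ultrafine particles differed by a median of 0.04 over the 8 genes in 27 arrays, with 0 of 8 past the unadjusted threshold and 2.56% of all probes. Over the 20 arrays the median was -0.02, and 2 of 8 were lower with coarse particles, Tnnt2 (-0.34) and Ldb3 (-0.61), as were 3.56% of all probes.

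Low values followed the arrays with thymocyte transcripts in part. On all 6 arrays with raised Cd3d, Actc1, Myl2 and Mybpc3 lay below their median over the other 21 arrays. Mybpc3 was the clearest case by count: 5 of the 6 lay below 11.36, its lowest value on any other array except ultrafine 8. For Ldb3, Tnni3 and Tpm1 3 of the 6 lay below the median of the others, for Myl3 2 and for Tnnt2 none. Tnnt2 ran from 13.77 to 14.17 on the 6 arrays, above its median of 13.73 on the others. Of all kept probes, from 51.7% on fine 2 to 60.0% on ultrafine 2 lay below their median over the 20 arrays. How many of all probes lay below on all 6 arrays, or below every other array, was not counted. The low values were concentrated on the 2 arrays with the highest Cd3d. On coarse 1, measured from the median of the 20 arrays, Mybpc3 deviated by -2.04, Ldb3 by -1.14, Myl2 by -1.02 and Actc1 by -0.88. On ultrafine 7 the same genes deviated by -1.86, -1.11, -1.51 and -0.84. The troponin and tropomyosin genes deviated less: Tnni3 deviated by -0.38 and -0.20, Tpm1 by -0.16 and -0.17, and Tnnt2 by 0.03 and 0.42. The median deviation of the 8 genes was -0.63 on coarse 1 and -0.78 on ultrafine 7, beside -1.06 and -1.01 for 36 probes of other sarcomere and Z-disc genes and -1.17 and -1.12 for 9 markers of heart muscle cells outside the sarcomere. Bright probes of any kind were also low on these 2 arrays. The 48 probes with a mean level over 13, Tnni3, Tnnt2, Myl3 and Tpm1 among them, had medians of -0.54 and -0.69. For probes with a mean level from 11 to 13 the medians were -0.38 and -0.27, and from 6 to 9 both were -0.09. Markers of some other cell types were low there too. The medians were -1.08 and -1.27 for 8 fibroblast probes, -0.86 and -0.74 for 6 endothelial probes and -0.92 and -1.07 for 2 smooth muscle probes. Others were not so low: 6 macrophage probes had medians of 0.50 and 0.34 and 5 adipocyte probes 0.68 and 0.20. For 4 red cell probes the medians were -0.25 and -0.14, and for 9 skeletal muscle probes 0.11 and -0.15. For the 8 sarcomere genes the median was -0.28 on ultrafine 2, and 0.02, 0.03 and 0.05 on filtered air 1, coarse 2 and fine 2, whose Cd3d is also raised. The share of these low values that goes with the thymocyte RNA itself was not tested.

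**Figure D4:**
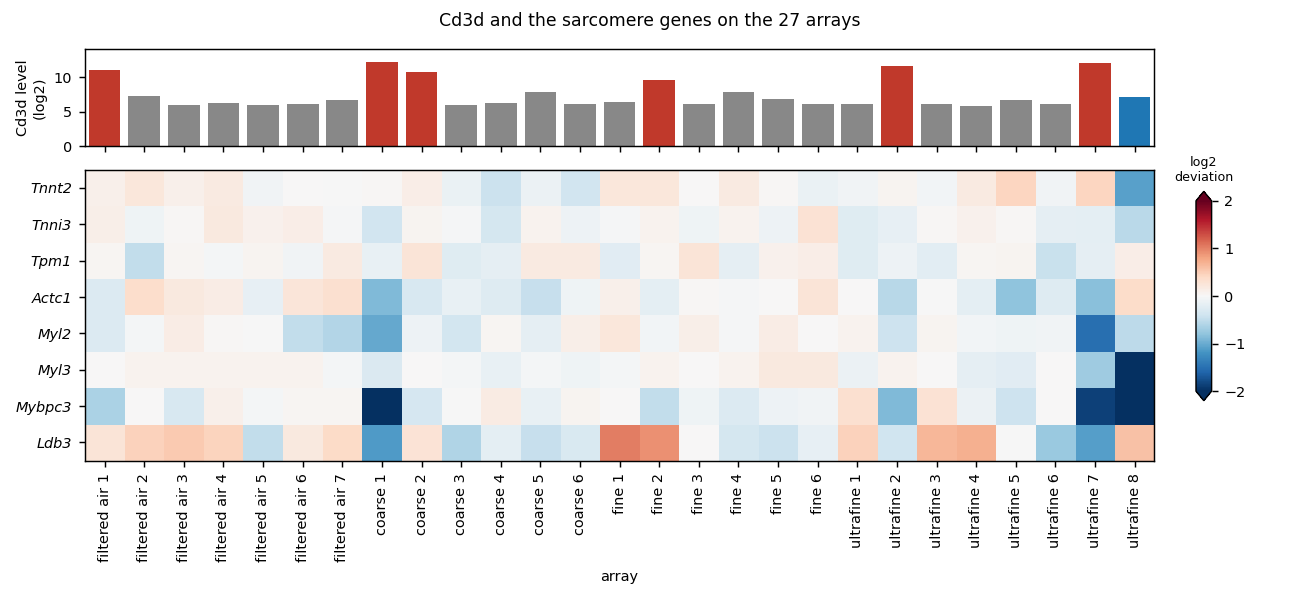
Cd3d level of each array (bars, log2, from 0) above the deviation of each sarcomere gene from its median over the 20 arrays that do not stand apart (colour, log2, blue low, red high, limited to 2 either way). Coarse 1 and ultrafine 7 are blue over Mybpc3, Myl2, Ldb3 and Actc1, and ultrafine 8 over Mybpc3, Myl3 and Tnnt2.

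Within the 6 arrays with raised Cd3d, Ldb3 was lower the higher Cd3d was. Pearson's r was -0.97 (exact permutation p = 0.00139, adjusted 0.0222 over 16 relations, 8 genes in 2 sets of arrays), and Spearman's rho was -1 (exact permutation p = 0.00278, adjusted 0.0444). Without the 2 arrays farthest from the median of Cd3d r was -0.97. Actc1 gave -0.91 (adjusted exact permutation p = 0.0889), and Mybpc3, Myl2 and Tnni3 gave -0.83, -0.83 and -0.82 (adjusted exact permutation p = 0.129 each), so only Ldb3 passed. Only the 8 genes were tested this way, and how many of all probes follow Cd3d as closely was not counted. On coarse 1 and ultrafine 7, with the highest Cd3d, 528 and 551 of 11657 probes deviated by less than -1. Among these 6 arrays Ldb3 was highest on fine 2, at 10.00, and lowest on coarse 1, at 7.94. These 6 arrays come from all 4 groups, with 1 or 2 in each, too few for a value within a group. In the 21 other arrays no gene passed: r lay between -0.31 for Mybpc3 (adjusted permutation p = 0.272) and 0.01 for Tpm1, and Mybpc3 gave -0.35 without ultrafine 8. Under cyclic loess normalization between arrays Ldb3 no longer passed (adjusted exact permutation p = 0.0667), and r was 0.80 for Tnni3, 0.87 for Tpm1, 0.75 for Tnnt2 and 0.32 for Myl3 in the 6 arrays, so the direction for the brightest genes depends on the scaling.

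**Figure D5:**
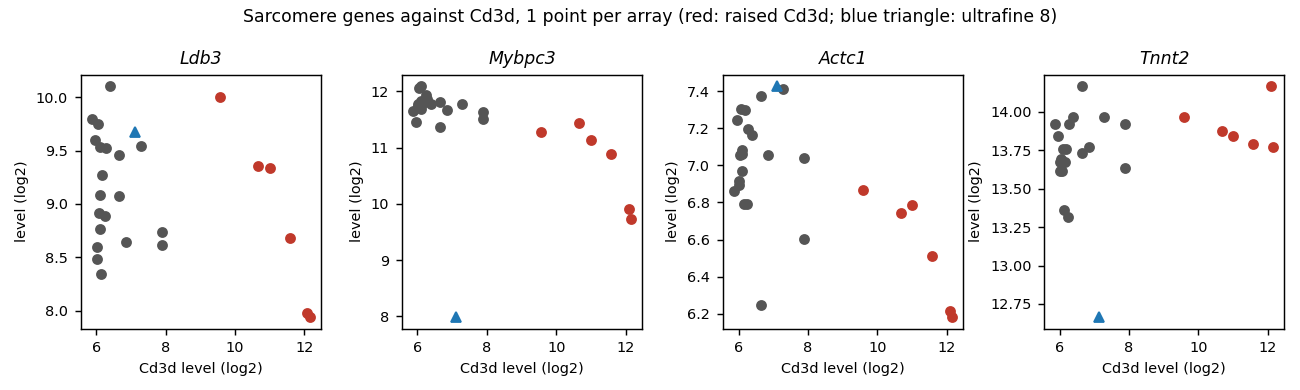
Log2 level of Ldb3, Mybpc3, Actc1 and Tnnt2 (vertical) against Cd3d (horizontal, log2), 1 point per array; red points are the 6 arrays with raised Cd3d and the blue triangle is ultrafine 8. Ldb3, Mybpc3 and Actc1 are lower from left to right among the red points, Tnnt2 stays between 13.77 and 14.17, and ultrafine 8 is low for Mybpc3 and Tnnt2 at a Cd3d of 7.12.

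For Mybpc3, Myl3, Tnnt2 and Tnni3 the lowest array of the series was ultrafine 8, which is not among the 6 with raised Cd3d. On ultrafine 8, where Cd3d was 7.12 and the median thymocyte deviation 0.28, Mybpc3 deviated by -3.78, Myl3 by -3.29 and Tnnt2 by -1.08. Tnni3 and Myl2 deviated by -0.54 and -0.53, while Tpm1, Actc1 and Ldb3 were above the median by 0.14, 0.37 and 0.59. The sarcomere genes thus lay on both sides of their medians on this array. The 36 probes of other sarcomere genes had a median deviation of 0.06 and the 9 markers of heart muscle cells -0.08. Among all probes, 64 of 11657 (0.549%) deviated by less than -3 on ultrafine 8, against 2 on ultrafine 2 and 0 on each of the other 25 arrays. Mybpc3 was the 16th and Myl3 the 40th lowest of all probes there. What sets this array apart was not tested.

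The sarcomere genes did not vary as 1 group. Over 27 arrays Mybpc3 and Myl3 had a Pearson r of 0.85, and Actc1 and Ldb3 0.60. In the 20 arrays, with group means taken away, these were 0.20 and 0.43, so the first rests on the arrays apart. The closest pair there was Actc1 and Mybpc3 at 0.69, while Tnnt2 and Mybpc3 stood at -0.63. These are descriptions over arrays that share their normalization. The genes most like the mean of the 8 standardised sarcomere genes over 27 arrays were Ecsit (r = 0.92), Hhatl (0.92), Adsl (0.92), Itgb1bp2 (0.91) and Psen2 (0.88). In the 21 arrays without raised Cd3d, with group means taken away, they were RT1-CE16 (0.91), Adsl (0.90), Psen2 (0.88), Camk2n1 (0.88) and Smarca4 (0.87), and ultrafine 8 is among those 21. Without it, in the 20 arrays, they were Hivep1 (0.81), Klf6 (0.77), Gclc (0.77), Smarca4 (0.75) and Unc5b (0.75). Hivep1 was dim, with a mean level of 5.92 where the lowest kept mean was 5.79. Ecsit, Hhatl, Adsl, Itgb1bp2 and Psen2 all lay below their medians on coarse 1, ultrafine 7 and ultrafine 8, Ecsit by -1.12, -0.77 and -0.82. Each list is the top of a ranking of all named kept probes outside the sarcomere genes.

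The wider sarcomere and Z-disc list held 50 other genes, of which 35 had a probe and 34, with 36 probes, passed the filter. None of the 36 was called in the 27 arrays in any of the 7 comparisons of the main fit, without weights, block, covariate or loess. With coarse particles 27 of 36 lay below 0, at a median of -0.10, with fine 16, at 0.02, and with ultrafine particles 27, at -0.14. Of all probes 51.6%, 49.2% and 48.3% lay below 0. The smallest p with coarse particles were those of Lmod3, a leiomodin that lengthens thin filaments (-0.50, adjusted p = 0.409 by limma), Nexn, which encodes nexilin of the Z-disc (-0.75, adjusted p = 0.851), and Myot, which encodes the Z-disc protein myotilin (0.57, adjusted p = 0.985). With ultrafine particles they were those of Lmod3 (-0.39, adjusted p = 0.637), Unc45b, a chaperone of myosin (-0.25, adjusted p = 0.861), and Tnnc1, the calcium-binding subunit of the cardiac troponin complex (-0.31, adjusted p = 0.883). With fine particles they were those of Unc45b (0.15), Nexn (-0.37) and Pdlim1, a PDZ and LIM domain protein (0.19), with adjusted p of 0.916, 0.916 and 0.918. Unc45b and Nexn each have a second probe, and for Unc45b with fine particles it read -0.06. For Nexn with coarse particles the second probe, the brighter of the 2, read -0.31 (adjusted p = 0.985 by limma). Without the arrays apart Lmod3 fell by 0.41 with coarse and by 0.44 with ultrafine particles (adjusted p = 0.0106 and 0.0016 by limma), where 0.377% and 0.721% of all probes were called. With arrays coarse 6 and ultrafine 5 left out as well, the Lmod3 falls were 0.42 and 0.46 (adjusted p = 0.0214 and 0.00299), and Myot rose by 0.48 with coarse particles (adjusted p = 0.0200). In those 18 arrays 51 of 11657 probes were called with coarse and 78 with ultrafine particles. Without the arrays apart Lmod3 was also called between coarse and fine (-0.37, adjusted p = 0.0390, where 0.275% of probes were called) and between fine and ultrafine particles (0.40, adjusted p = 0.00628, where 1.11% were). The first of these calls was lost with those 2 arrays left out too (adjusted p = 0.0566). Cryab, the small heat shock protein alpha B crystallin that binds Z-disc and filament proteins, was called between fine and ultrafine particles in the 20 arrays (0.30, adjusted p = 0.0443) but not in the 18 (0.24, adjusted p = 0.0613), where Lmod3 was (0.42, adjusted p = 0.00748). Between fine and ultrafine particles 275 of 11657 probes were called in the 18 arrays. In all 27 arrays, with array weights Lmod3 was called with coarse (-0.38, adjusted p = 0.00648) and ultrafine particles (-0.40, adjusted p = 0.00449, where 0.738% of all probes were called), between coarse and fine (where 0.472% were) and between fine and ultrafine particles (where 6.99% were). The weighted fit also called Myot with coarse (0.99, adjusted p = 0.0399, where 1.08% of all probes were called) and Cryab between fine and ultrafine particles (0.27, adjusted p = 0.0344). It includes coarse 6, whose skeletal muscle probes were high, and the Myot difference was 0.48 in the 18 arrays without it. Whether skeletal muscle RNA on coarse 6 adds to the Myot difference was not tested. With the replicate number as a block Lmod3 was called with coarse and ultrafine particles (adjusted p = 0.0479 and 0.0404) and between fine and ultrafine particles (0.0385). There 9, 12 and 51 of 11657 probes were called, and ultrafine 8, the only array of its number, does not enter those differences. In the test of any difference Lmod3 was called with weights, with the block, after cyclic loess and with a thymocyte covariate, and Myot with weights. Of 11657 probes, 394 were called with weights, 25 with the block, 27 after loess and 60 with the covariate. The same test called Lmod3 in the 20 arrays (adjusted p = 0.00109 by limma), in the 18 (0.00192) and without ultrafine 8 alone (0.0137). It called Myot in the 18 arrays (0.0255). Of all 11657 probes the test called 97 in the 20 arrays, 132 in the 18 and 27 without ultrafine 8. Of the 8 sarcomere genes themselves none was called in the 20 arrays, and Actc1 with coarse particles was the only call in the 18.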

How the data were processed

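Total RNA of 27 rat hearts was measured on Illumina bead arrays. The authors began with 32 arrays and left out 5 of poor signal, per the labels. The deposited values are on a log2 scale. The authors made them with lumi 1.5.17 at default settings, per the series text and the submitters' processing notes. Whether low values were also variance-stabilised is not given in the sources used here, so a difference is on the scale of the table. The sorted levels of the arrays differed by at most 0.0185 in the values, and 13192 of 22226 probes carried a symbol.

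The authors kept 11657 probes, per the labels. The same number was kept here by highest mean (5.79 or more), as the first step. The 4 groups were fitted in 1 model with limma 3.58.1 under R 4.3.3, two-sided, with Benjamini-Hochberg adjustment over all kept probes and a call at an adjusted p under 0.05. The fit was tested on simulated data. An array counted as raised in Cd3d above 8.39, and as low in correlation where its median correlation with the others was under 0.949, the first quartile less 1.5 interquartile ranges. Relations with Cd3d were tested by permutation, exact for 6 arrays and with 100000 resamples otherwise.

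The named genes are all probes of the 9 members, the called members and the 3 with the smallest p of the wider list, and the 5 most alike genes in each set of arrays. Members and lists were chosen with earlier results of these data known. The most alike genes in the 20 arrays, the left-out skeletal muscle arrays and ultrafine 8 alone were alternatives added after seeing the data. Other alternatives were no filter, the brighter probes, cyclic loess, centring on heart muscle cell markers, 1 probe per gene, a trend with robust fitting, array weights, the groups compared alone, the replicate number as a block, a thymocyte covariate and each array left out in turn. Promoter sequences are from RefSeq, build GRCr8, matched by symbol for 8 of 9 genes. Detection p-values were not analysed here.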

Additional observations from a re-analysis of the deposited data

Results flagged for a closer look

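Of 32 sets of 1 gene in 1 group, 6 held an array far from the others by Dixon's test, where chance gives about 1 in 20. On ultrafine 8, Myl3 stood at 10.68 and Tnnt2 at 12.67, each the lowest of 8. On ultrafine 7, an array with raised Cd3d, Myl2 stood at 10.96, the lowest of 8. On coarse 1, also with raised Cd3d, Mybpc3 stood at 9.73, the lowest of 6. Both remaining values were in filtered air, on arrays that do not stand apart: Ldb3 at 8.59 on filtered air 5 and Tpm1 at 13.30 on filtered air 2, each the lowest of 7. All 6 values were at the low end of their group.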

How the results depend on the processing

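The count of 0 sarcomere genes called by limma held in every comparison under every alternative but array weights and the 18 arrays. Array weights gave 2 with coarse particles and 1, Tnnt2, in the test of any difference, and the 18 arrays gave 1, Actc1, with coarse particles. At an unadjusted p under 0.05 the counts in the main fit were 2, 0 and 2 for coarse, fine and ultrafine particles against filtered air. The count of genes related to Cd3d, 1 as reported, was 0 after cyclic loess. The replicate numbers were not taken to pair the arrays in the main fit. Of same-number pairs 23 of 37 correlated over 0.1, a larger share than the 98 of 235 pairs of other numbers. The r of same-number pairs ran from -0.72 to 0.87 with a median of 0.34, against a median of 0.0083 over the 235. Of 27 arrays, 6 correlated best with their own number. Among the arrays with raised Cd3d, filtered air 1 and coarse 1 share a number, as do coarse 2, fine 2 and ultrafine 2. What else arrays of the same number share was not tested. With the replicate block 0 of 8 genes were called, 5 of 8 were lower with coarse particles at an unadjusted p under 0.05, against 2 without it, and the median difference was -0.21 with coarse and -0.18 with ultrafine particles. With the block the calls over all probes went from 1 to 9 with coarse particles, from 8 (7 higher) to 12 (2 higher) with ultrafine particles, from 3 to 9 between coarse and fine particles, from 23 to 51 between fine and ultrafine particles and from 11 to 25 in the test of any difference. Only the ultrafine group has an array numbered 8, so with the block ultrafine 8 no longer enters the group differences. Leaving out ultrafine 8 alone, without the block, gave 3 calls with coarse and 12 (6 higher) with ultrafine particles. It gave 8 between coarse and fine particles, 60 between fine and ultrafine particles and 27 in the test of any difference. Centring on heart muscle cell markers moved the median of all probes by 0.11 with coarse and 0.15 with ultrafine particles and the share of all probes below 0 from 51.6% to 14.8% and from 48.3% to 12.6%. The median of the 8 genes was then -0.09 and -0.08.

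Uncalled differences from filtered air that changed sign are listed with their value. In the 21 arrays without raised Cd3d they were Ldb3 with ultrafine particles (0.028), Tnnt2 with fine particles (-0.0094), Myl2 with coarse particles (0.058), Myl2 with ultrafine particles (0.058) and Mybpc3 with coarse particles (0.049). In the 18 arrays also without coarse 6 and ultrafine 5 they were Ldb3 with ultrafine particles (0.022), Tnnt2 with fine particles (-0.0094), Myl2 with ultrafine particles (0.16), Tpm1 with coarse particles (-0.0296), Mybpc3 with coarse particles (0.037) and Mybpc3 with ultrafine particles (0.16). After cyclic loess they were Tnnt2 with fine particles (-0.012), Tnnt2 with ultrafine particles (0.0402) and Tpm1 with ultrafine particles (0.066). When centred on heart muscle cell markers they were Tnnt2 with fine particles (-0.0094), Tnnt2 with ultrafine particles (0.041), Myl2 with coarse particles (0.035) and Tpm1 with ultrafine particles (0.066). With array weights they were Tnnt2 with fine particles (-0.034), Myl2 with coarse particles (0.056), Myl2 with ultrafine particles (0.094), Mybpc3 with coarse particles (0.046) and Mybpc3 with ultrafine particles (0.10). In the 20 arrays they were Tnnt2 with fine particles (-0.0094), Tnnt2 with ultrafine particles (0.0096), Myl2 with coarse particles (0.058), Myl2 with ultrafine particles (0.14), Mybpc3 with coarse particles (0.049) and Mybpc3 with ultrafine particles (0.048). With the replicate number as a block they were Tnnt2 with ultrafine particles (0.0497) and Myl3 with fine particles (-0.015). With the thymocyte mean as a covariate they were Myl2 with coarse particles (0.061). Leaving out 1 array at a time gave -0.26 to 0.033 for Ldb3 with fine particles, -0.014 to 0.057 for Tnnt2 with fine particles, -0.17 to 0.0497 for Tnnt2 with ultrafine particles, -0.15 to 0.072 for Myl2 with coarse particles, -0.21 to 0.027 for Myl2 with ultrafine particles, -0.028 to 0.096 for Tpm1 with coarse particles, -0.013 to 0.11 for Tpm1 with fine particles, -0.37 to 0.066 for Mybpc3 with coarse particles and -0.14 to 0.015 for Mybpc3 with fine particles. The cause was not tested. The number of arrays and the small steps among the brightest probes limit what can be seen, and detection p-values were not used here.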

Other observations

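The mean of 4 measured atrial markers (Myl7, an atrial light chain, Nppa, which encodes atrial natriuretic peptide, Gja5, a gap junction protein, and Bmp10, an atrial growth factor) ran from 8.37 to 9.77 with filtered air, 8.58 to 9.72 with coarse, 9.28 to 9.81 with fine and 7.45 to 9.83 with ultrafine particles. The lowest array in the series was ultrafine 2, at 7.45, followed by ultrafine 7 at 7.85, filtered air 4 at 8.37 and coarse 1 at 8.58. Of these 4, ultrafine 2, ultrafine 7 and coarse 1 are arrays apart, on which the 8 sarcomere genes had median deviations of -0.28, -0.78 and -0.63. Filtered air 4 has a Cd3d level of 6.27 and is not among the arrays apart, and the 8 sarcomere genes had a median deviation of 0.12 on it.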
